A study of Rattus norvegicus with 8 samples.

Results

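HOX genes encode transcription factors that bind DNA through a homeodomain, and in the rat they lie in 4 clusters, Hoxa to Hoxd. The number in a gene's name is its paralogue number, which follows its place in the cluster. Low numbers mark the 3′ end and are switched on towards the head of the embryo, and high numbers mark the 5′ end and are switched on towards the tail and in the distal limb. Adult smooth muscle cells and fibroblasts keep part of this pattern, so that the set of HOX genes on in a vessel is commonly read as a record of its place along the body. The HOX genes were chosen here by name, as every probe whose transcript accession belongs to a rat gene Hoxa, Hoxb, Hoxc or Hoxd with a paralogue number from 1 to 13. Of 39 such genes in the rat gene table, 28 were found on the array through 36 probes, out of 16678 named genes on the array in all, and each cluster had 7 genes there. For the other 11 genes (Hoxa3, Hoxa5, Hoxa9, Hoxa10, Hoxb1, Hoxb2, Hoxb6, Hoxc6, Hoxc13, Hoxd8 and Hoxd11) no probe was named, so they were not analysed here.

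Vessel RNA was taken from 4 male control rats and 4 male hypertensive rats, and each sample was read on its own 1-colour oligonucleotide array. The labels give the strain of the controls as Wistar-Kyoto, a normotensive laboratory strain. They give Wistar-Kyoto for the hypertensive animals as well, although the title of the series tells the disease model rats apart by hypertension from Wistar-Kyoto controls, so the strain, the cause of hypertension and any genotype of that group are not settled. No treatment is named for either group, and neither the age of the rats nor the vessel is given in the sources used here. Levels are log2 signal relative to the array's 75th percentile, so 0 is the level of that percentile, and levels of different genes are not compared because each probe has its own brightness. All 8 arrays lay on 1 slide with 1 scan time. The controls filled row 1 of the slide and the hypertensive rats row 2, so row and group cannot be told apart. Well above background, a mark set by the scanner software, held for 58.7% to 64.1% of probes per array. As defining markers of vessel wall, all 10 smooth muscle genes and all 8 endothelial genes with a probe were well above background on every array. In such bulk samples, fewer cells of a type and less RNA per cell cannot be told apart.

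Along the clusters, among the genes with a named probe, detection by the well above background mark was densest in the middle. Each probe has its own brightness, and its part in this pattern was not tested. The 11 genes without a named probe are missing from it. With another mark, signal significantly above background, 23 of 28 genes counted as detected instead of 15 (at least 3 of 4 rats of a group). Whether the pattern holds with that other mark was not tested. Of the 28 genes, 14 were well above background on all 8 arrays, 5 on some arrays and 9 on none. Among paralogues 4 to 8, 9 of 11 genes were detected on all arrays and the other two, Hoxb8 and Hoxc5, on some. All 4 genes of paralogue group 4 (Hoxa4, Hoxb4, Hoxc4 and Hoxd4), which pattern the neck in the embryo, were detected on every array. At the 3′ end, Hoxa2 and Hoxb3 were detected on all arrays and Hoxd3 on 5, while Hoxd1 was detected on none. Among paralogues 9 to 13, which pattern the body from the lower thorax to the tail and the limbs, 3 of 12 genes were detected on all arrays (Hoxc9, Hoxd9 and Hoxd10) and 7 on none (Hoxa11, Hoxa13, Hoxb9, Hoxb13, Hoxc11, Hoxc12 and Hoxd13). Every paralogue 13 gene with a probe was thus below the well above background mark.

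The groups showed nearly the same set of detected genes. Between 14 and 18 HOX genes were detected per array, numbering 17, 14, 15 and 15 for controls 1 to 4 and 15, 14, 17 and 18 for hypertensive rats 1 to 4. The genes that differed between arrays were those near background. Hoxd3 was detected in 2 controls and 3 hypertensive rats, Hoxb8 and Hoxd12 each in 1 control and 2 hypertensive rats, Hoxc5 in 1 hypertensive rat and Hoxc10 in 1 control. A gene entered the comparison when 1 of its probes was well above background in at least 3 of 4 rats of a group, which left 15 HOX genes and set 13 aside. Over all named genes on the array 71.7% passed that filter.

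**Figure D1:**
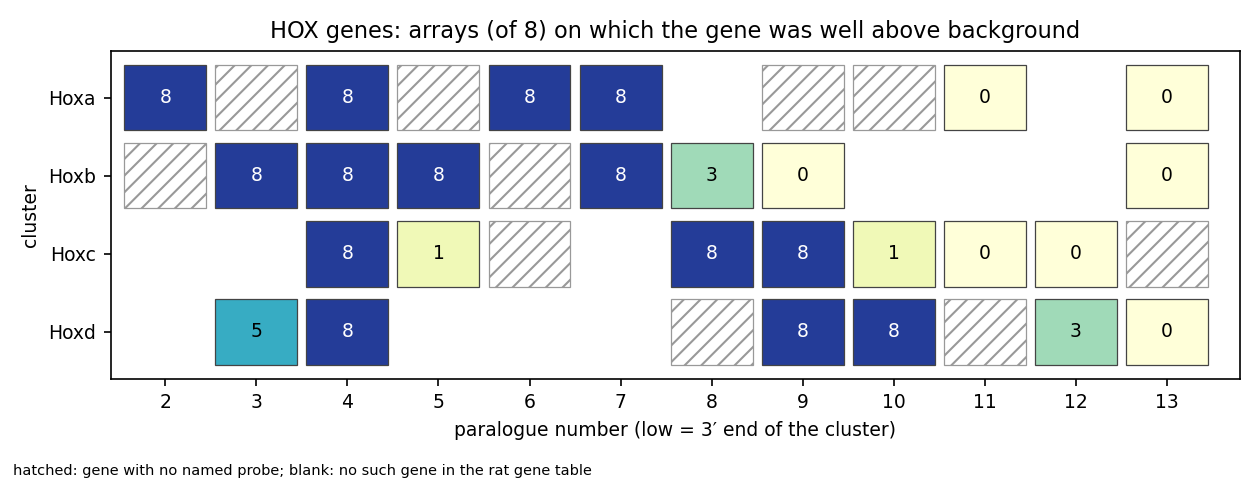
Number of arrays, out of 8, on which each HOX gene was well above background, by cluster (rows) and paralogue number from 2 to 13 (columns). Hatched squares are genes with no named probe and blanks are positions with no gene in the rat gene table. Most genes with a named probe in columns 4 to 8 stand at 8, and the measured genes in the column for paralogue 13 all stand at 0.

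None of the 15 tested HOX genes differed between hypertensive and control rats at an adjusted p under 0.05 (limma, Benjamini-Hochberg adjustment over all 24552 tests of the array). The estimates still lay largely on one side. The level was higher in the hypertensive group for 14 of the 15 genes, with Hoxa7 as the exception, and this was 13 of 15 when each array was centred on its median, or when control replicate 2 or hypertensive replicate 4 was left out, where Hoxc9 turned sign. Hoxd3 entered the test only through the hypertensive group, where it was higher, and without it the count was 13 of 14. Over all tests 57.7% of estimates lay above 0. The median log2 change of the HOX genes was 0.23, against 0.041 over all tests and 0.022 over all named genes tested. By cluster it was 0.24 for the 4 tested Hoxa genes, 0.22 for the 4 Hoxb genes, 0.11 for the 3 Hoxc genes and 0.55 for the 4 Hoxd genes, or 0.62 for the 3 Hoxd genes other than Hoxd3.

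At an unadjusted p under 0.05 there were 4 HOX genes (Hoxb7, Hoxd4, Hoxd9 and Hoxd10), all of them higher in hypertensive rats, and these were also the 4 with an adjusted p under 0.1. Among all 24552 tests, 4.53% passed the adjusted threshold of 0.05, 20.3% had an unadjusted p under 0.05 and 12.2% had such a p with a higher level, while 8.58% had an adjusted p under 0.1, 5.05% with a higher level. Of the 1111 tests called, 641 (2.61% of tests) were higher and 470 (1.91%) lower in hypertensive rats. That split of 57.7% higher became 47.4% after quantile normalization and 39.3% after median centring. Every hypertensive rat lay above every control for 3 of the 15 HOX genes (Hoxb3, Hoxb7 and Hoxd4). Among all tests 13.6% had no overlap, 7.84% with the hypertensive rats higher. A fold change of at least 1.5 was reached by 2 of 15, Hoxd4 and Hoxd10, both higher, against 7.91% of all tests, or 4.81% with a higher level.

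The number of HOX genes past the threshold depended on the processing. All 4 of Hoxb7, Hoxd4, Hoxd9 and Hoxd10 passed after normexp background correction, with adjusted p of 0.040, 0.029, 0.019 and 0.040, and also with array weights, with 0.032, 0.046, 0.038 and 0.038. Calls rose over the whole array as well, from 1111 of 24552 tests to 1853 after normexp correction and 1543 with array weights. Quantile normalization let Hoxb7 alone pass (0.048). Without hypertensive replicate 1, Hoxd10 passed (0.034).

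**Figure D2:**
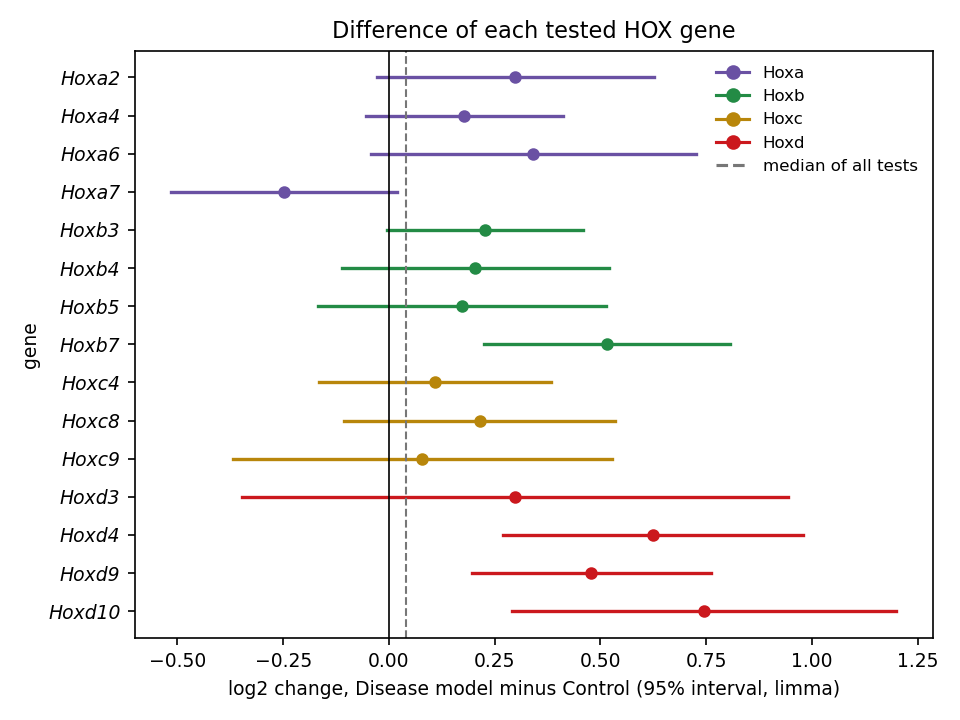
Log2 change (hypertensive minus control, horizontal axis) of each tested HOX gene with its 95% interval from limma, coloured by cluster; the dashed line is the median of all tests. The points lie above 0 except that of Hoxa7, and the intervals of Hoxb7, Hoxd4, Hoxd9 and Hoxd10 do not include 0.

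The sequences upstream of genes with these estimates are given here to show what lies next to the transcript starts. They are the 250 bases before the annotated transcript start in RefSeq (GRCr8), 5′ to 3′ on the gene's strand, for Hoxa7 (chr4:82648242-82648491, minus strand), Hoxd4 (chr3:80021636-80021885, plus strand), Hoxd9 (chr3:80007756-80008005, plus strand) and Hoxd10 (chr3:80001697-80001946, plus strand). Hoxb7 had no entry. Capitals mark CACGTG, the E-box letters of basic helix-loop-helix factors, which read the same on both strands.
Hoxa7: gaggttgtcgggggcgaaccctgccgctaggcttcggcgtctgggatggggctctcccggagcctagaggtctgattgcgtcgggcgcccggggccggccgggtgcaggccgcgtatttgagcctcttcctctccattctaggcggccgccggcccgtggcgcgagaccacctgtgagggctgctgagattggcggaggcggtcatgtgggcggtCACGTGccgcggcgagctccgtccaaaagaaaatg
Hoxd4: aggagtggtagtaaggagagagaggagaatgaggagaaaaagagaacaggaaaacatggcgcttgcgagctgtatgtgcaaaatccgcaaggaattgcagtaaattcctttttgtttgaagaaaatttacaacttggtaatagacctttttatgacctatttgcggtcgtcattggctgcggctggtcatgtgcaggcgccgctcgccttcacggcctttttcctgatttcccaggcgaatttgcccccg
Hoxd9: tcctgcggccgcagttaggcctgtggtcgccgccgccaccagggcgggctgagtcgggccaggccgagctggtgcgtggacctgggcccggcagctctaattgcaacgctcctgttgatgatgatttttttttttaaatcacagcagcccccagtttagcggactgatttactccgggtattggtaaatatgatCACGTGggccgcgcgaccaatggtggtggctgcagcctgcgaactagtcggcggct
Hoxd10: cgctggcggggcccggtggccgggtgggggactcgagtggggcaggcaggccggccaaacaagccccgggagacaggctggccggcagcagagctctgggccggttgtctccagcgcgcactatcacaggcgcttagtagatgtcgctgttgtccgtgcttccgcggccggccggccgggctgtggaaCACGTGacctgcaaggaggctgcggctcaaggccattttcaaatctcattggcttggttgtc
In Hoxa7, Hoxd9 and Hoxd10 the capitals begin 35, 56 and 62 bases before the transcript start, and the Hoxd4 window does not hold these letters. CACGTG was singled out after the counts were seen. Over the 21 windows of 20 HOX genes in the table it was present in 38.1%, against 5.59% of all 33469 windows of the same length. Of Hoxb only Hoxb1 and of Hoxc only Hoxc4 had a window, so the shares of HOX windows given here are mainly those of Hoxa and Hoxd. HOX windows were also richer in CpG, with a median of 20 CpG against 5 over all windows. Among windows with at least 20 CpG, 6 of 11 HOX windows and 10.5% of all windows held it. A few other strings were searched on both strands. CCAAT, the box of that name, was in 57.1% of HOX windows and 34.0% of all windows. The GC box GGGCGG was in 47.6% and 30.5%. The TATA box, as TATAAA, was in 19.0% and 12.9%, and the core homeodomain site TAATTA in 4.76% and 4.86%. Among windows with at least 20 CpG, GGGCGG was in 9 of 11 HOX windows and 79.9% of all windows, CCAAT in 7 of 11 and 28.4%. There the TATA box was in 2 of 11 HOX windows and 2.75% of all windows, and the homeodomain site in 1 of 11 and 0.554%. None of these strings can lie inside another, though neighbouring matches may share bases. Such a match describes the letters only.

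The Hoxd cluster held the 2 largest estimates. Hoxd10, which patterns the lumbar region and hind limb and has been studied as a gene of resting endothelium, read -1.09, -1.32, -0.87 and -1.39 in the controls (replicates 1 to 4 in order, here and for the other genes) and -0.90, -0.34, 0.051 and -0.49 in the hypertensive rats. The lowest hypertensive rat lay just under the highest control, so the groups overlapped by that pair. The means were -1.16 ± 0.24 and -0.42 ± 0.39 (SD, n = 4 each), a log2 change of 0.75 ± 0.20 (SE, 95% interval 0.29 to 1.20, 1.68-fold, limma adjusted p = 0.0751).

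Hoxd4, a gene of the neck region, read -3.21, -3.37, -3.69 and -3.81 in the controls and -2.89, -2.98, -2.62 and -3.09 in the hypertensive rats. All hypertensive rats lay above all controls, at a dim level that was still well above background on all 8 arrays. The log2 change was 0.62 ± 0.16 (SE, 95% interval 0.27 to 0.98, 1.54-fold, adjusted p = 0.0612). After normexp correction with an offset of 50 the same change was 0.37.

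Hoxd9, which patterns the lumbosacral region and limb, read 3.38, 3.43, 3.73 and 3.38 in the controls and 3.72, 4.06, 4.16 and 3.89 in the hypertensive rats. Control replicate 3 stood above the other controls and met the lowest hypertensive rat. The log2 change was 0.48 ± 0.12 (SE, 95% interval 0.20 to 0.76, 1.39-fold, adjusted p = 0.0697). Further towards the 5′ end, Hoxd12 was detected on 3 arrays and Hoxd13 on none.

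Hoxd3, reported to turn endothelial cells towards an invasive, angiogenic state, was the lowest-numbered Hoxd gene detected. It read -4.65, -5.06, -5.12 and -4.50 in the controls and -4.30, -4.87, -3.82 and -5.15 in the hypertensive rats. The hypertensive rats spanned the whole range of the controls, and the change of 0.30 ± 0.28 (SE, adjusted p = 0.597) was within the spread.

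In the Hoxb cluster, Hoxb7, a trunk-level gene, read 2.73, 2.77, 3.08 and 2.83 in the controls and 3.15, 3.44, 3.64 and 3.25 in the hypertensive rats. Every hypertensive rat lay above every control. The means were 2.85 ± 0.16 and 3.37 ± 0.21 (SD, n = 4 each), a log2 change of 0.52 ± 0.13 (SE, 95% interval 0.22 to 0.81, 1.43-fold) with an adjusted p of 0.0604, the smallest of the 15 genes.

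Hoxb3, like Hoxd3 a gene reported to promote capillary growth, was almost constant over the controls at 1.15, 1.12, 1.15 and 1.13. The hypertensive rats read 1.18, 1.52, 1.53 and 1.22, that is, replicates 1 and 4 just above the controls and replicates 2 and 3 further up. The log2 change was 0.23 ± 0.10 (SE, adjusted p = 0.253). Hoxb4, a regulator of blood stem cell growth, and Hoxb5, a gene of the neck and upper trunk, had changes of 0.20 ± 0.14 and 0.17 ± 0.15 (adjusted p of 0.452 and 0.560), with overlapping groups.

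The Hoxa genes ran both ways. Hoxa7, a thoracic gene and the highest-numbered Hoxa gene detected, read -0.24, -0.16, -0.30 and -0.20 in the controls and -0.49, -0.28, -0.33 and -0.79 in the hypertensive rats. It was the one gene with a lower mean in hypertensive rats, with replicate 4 the lowest, and the change was -0.25 ± 0.12 (SE, 95% interval -0.51 to 0.018, adjusted p = 0.277). Hoxa2, which patterns the hindbrain and second branchial arch, read 1.08, 1.05, 0.79 and 1.42 in the controls and 1.57, 1.49, 1.23 and 1.24 in the hypertensive rats. Control replicate 4 lay among the hypertensive rats, and the change was 0.30 ± 0.14 (SE, adjusted p = 0.287). Hoxa4, of the neck region, and Hoxa6, of the upper trunk, had changes of 0.18 ± 0.10 and 0.34 ± 0.17 (adjusted p of 0.374 and 0.299), and in both genes the groups overlapped.

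The Hoxc genes had the smallest median change of the 4 clusters. Hoxc4, of the neck region, read -1.24, -1.21, -1.41 and -1.24 in the controls and -0.89, -1.07, -1.33 and -1.38 in the hypertensive rats, with a change of 0.11 ± 0.12 (SE, adjusted p = 0.653). Hoxc9, a thoracic gene reported to hold endothelium at rest, read -2.0, -2.30, -1.40 and -1.94 in the controls and -2.13, -1.94, -1.70 and -1.55 in the hypertensive rats. The groups of both genes overlapped, although hypertensive replicates 1 and 2 lay above every control for Hoxc4. The Hoxc9 change of 0.079 ± 0.20 (SE, 95% interval -0.37 to 0.53, adjusted p = 0.854) turned to -0.0070 with median centring. Hoxc8, a thoracic gene, had a change of 0.21 ± 0.14 (SE, adjusted p = 0.436). These intervals do not show equal levels: that of Hoxc9 includes a 1.39-fold difference of the size seen for Hoxd9.

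**Figure D3:**
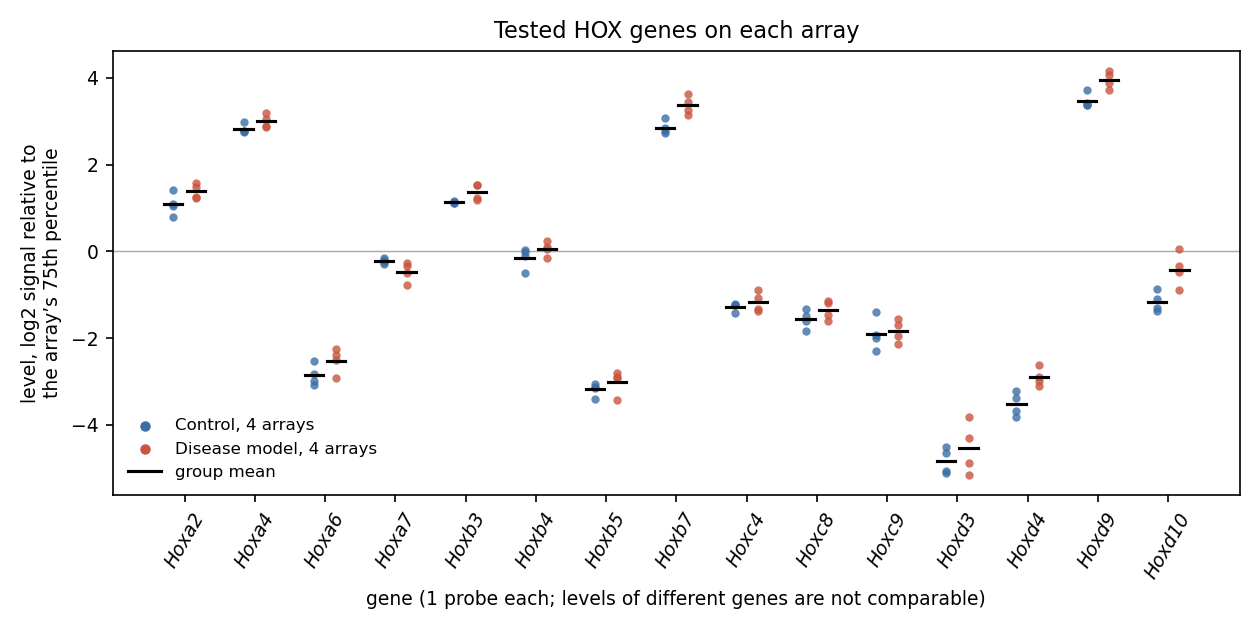
Level of each tested HOX gene on each array (points; log2 signal relative to the array's 75th percentile) in 4 control and 4 hypertensive rats, with the group mean as a bar. The groups separate without overlap for Hoxb3, Hoxb7 and Hoxd4; levels of different genes are not comparable.

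The estimates above 0 were not spread evenly over the rats. Hypertensive replicate 3 had the highest level of all 8 rats for 10 of the 15 genes, hypertensive replicate 1 for 3, and control replicates 2 and 3 for 1 each. The median deviation of the 15 genes from their means over all rats was -0.10, -0.29, -0.074 and -0.067 in control replicates 1 to 4. In hypertensive replicates 1 to 4 it was 0.15, 0.15, 0.30 and 0.0095, so that replicate 4 lay close to the overall mean. Without hypertensive replicate 3 the median log2 change of the HOX genes was 0.16, and without hypertensive replicate 4 it was 0.30. Genes of 1 cluster share regulatory DNA and all 15 share the arrays, so they are not replicates of each other.

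A second kept probe was available for 3 of the tested genes. For Hoxa2 it gave a change of 0.11 ± 0.18 beside 0.30 from the brighter probe, and for Hoxa4 0.24 ± 0.15 beside 0.18 (SE). For Hoxb3 it gave 0.0034 ± 0.18 beside 0.23, so the separation of the groups at the brighter Hoxb3 probe was not seen at the dimmer one. Hoxb7, Hoxd4, Hoxd9 and Hoxd10 each rested on 1 probe.

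Genes inside and beside the clusters were read in the same fit. The gene table holds 42 of them, 18 inside and 24 beside (the 3 nearest protein-coding genes on each side), of which 19 were on the array and 18 were tested. None passed the threshold, and 1 had an unadjusted p under 0.05, the autophagy-receptor relative Calcoco1 beside Hoxc (-0.23 ± 0.098, limma adjusted p = 0.237). The antisense RNA Hoxa11-as was detected on all arrays although Hoxa11 was detected on none. It read -0.57, -0.41, -0.87 and -0.58 in the controls and -0.12, -0.56, -0.58 and -0.94 in the hypertensive rats. The groups overlapped fully, with a change of 0.055 ± 0.17 (adjusted p = 0.887). Next to Hoxd, the mitochondrial import gene Mtx2 had probes that went opposite ways, a result named after its values were seen. Its brighter probe had a change of -0.19 ± 0.085 (adjusted p = 0.252). Its dimmer probe went from a mean of -3.17 to -1.83, a change of 1.34 ± 0.12, with an adjusted p of 3.8e-04 when every kept probe was tested.

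HOX proteins bind DNA together with cofactors of the PBX and MEIS families. Besides these families, the list read here held Tgif1, Tgif2 and Pbxip1. All 11 genes of this list with a probe were tested and none passed, with a median change of -0.0073. The smallest p belonged to Pbxip1, a PBX-binding protein (-0.27 ± 0.076, adjusted p = 0.0860), which passed after normexp correction (0.036) and in an unmoderated test (0.0487). Meis1, a partner of HOX proteins on DNA, had the next smallest p (0.18 ± 0.12, adjusted p = 0.434). The ParaHox and Cdx genes, relatives that include direct activators of HOX genes, had 7 members on the array and none was kept. Of 26 tested Trithorax and Polycomb genes, which hold HOX clusters open or closed, 1 passed: Phc1, a subunit of Polycomb complex PRC1, fell by 0.36 ± 0.081 on the log2 scale (1.29-fold, adjusted p = 0.0419). That list's median was 0.026.

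Retinoic acid, a signal that switches on HOX genes in the embryo, had 16 tested pathway genes, of which 1 rose and 1 fell, with a median of -0.086. Both encode enzymes that break retinoic acid down. Cyp26a1 read 4.02, 3.64, 4.31 and 4.02 in the controls and 2.43, 2.51, 1.56 and 2.49 in the hypertensive rats, and fell by 1.75 ± 0.23 on the log2 scale (3.36-fold, adjusted p = 0.0040). Cyp26b1 read 1.82, 1.65, 1.96 and 2.15 in the controls and 3.30, 4.11, 2.35 and 4.18 in the hypertensive rats, a rise of 1.59 ± 0.37 (3.01-fold, adjusted p = 0.0474). The groups did not overlap for either enzyme, and hypertensive replicate 3 was the lowest of its group for both. Aldh1a2, which makes retinoic acid, had a change of 1.06 ± 0.27 (adjusted p = 0.0616), which did not pass. The 3 receptors Rara, Rarb and Rarg had changes of 0.23, -0.15 and -0.062, none of which passed.

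Among 33 other tested transcription factors of trunk, limb and heart, 1 rose and none fell, with a median of 0.11. It was Meox2, a homeobox gene known to restrain smooth muscle growth, at 2.45, 2.64, 2.53 and 2.11 in the controls and 3.08, 2.92, 3.05 and 2.83 in the hypertensive rats. Its change was 0.54 ± 0.12 (1.45-fold, adjusted p = 0.0473), with no overlap. Of 22 tested genes reported elsewhere as HOX targets, 2 rose and 2 fell, with a median of 0.00035. Ncam1, a cell adhesion molecule, rose by 0.92 ± 0.18 (adjusted p = 0.0244) and Igfbp3, a binding protein of insulin-like growth factors, by 0.60 ± 0.13 (adjusted p = 0.0357). Spp1, osteopontin, fell by 2.88 ± 0.33 on the log2 scale (adjusted p = 0.0018). It was well above background in all controls but in 2 of 4 hypertensive rats, so it entered the test through the group where it was high and the size of the change is uncertain. After normexp correction its change was -0.76. Angpt2, a ligand of the endothelial receptor Tie2, fell by 0.53 ± 0.099 on the log2 scale (adjusted p = 0.0208).

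In all, 8 of the 108 tested genes of these lists passed, against 4.53% of all tests. They were 4 higher and 4 lower, but 1 higher and 4 lower after quantile normalization and 1 higher and 6 lower after median centring. Cyp26b1, Meox2 and Igfbp3 did not pass under either scaling, with adjusted p of 0.0543, 0.0524 and 0.0503 after quantile normalization and 0.059, 0.084 and 0.090 after median centring. Leaving out 1 rat at a time, Cyp26a1 passed in all 8 fits, and so did Spp1, whose filter was met by the controls alone. Ncam1 passed in 5, failing without control replicate 4 and without hypertensive replicates 2 and 3 (adjusted p up to 0.0690). Angpt2 passed only without control replicate 2 or hypertensive replicate 4, and Igfbp3 only without hypertensive replicate 3 or 4. The other calls each passed in 1 of 8 fits: Phc1 without control replicate 4, Meox2 without hypertensive replicate 4 and Cyp26b1 without hypertensive replicate 3. Their highest adjusted p over these fits were 0.116, 0.114 and 0.121.

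**Figure D4:**
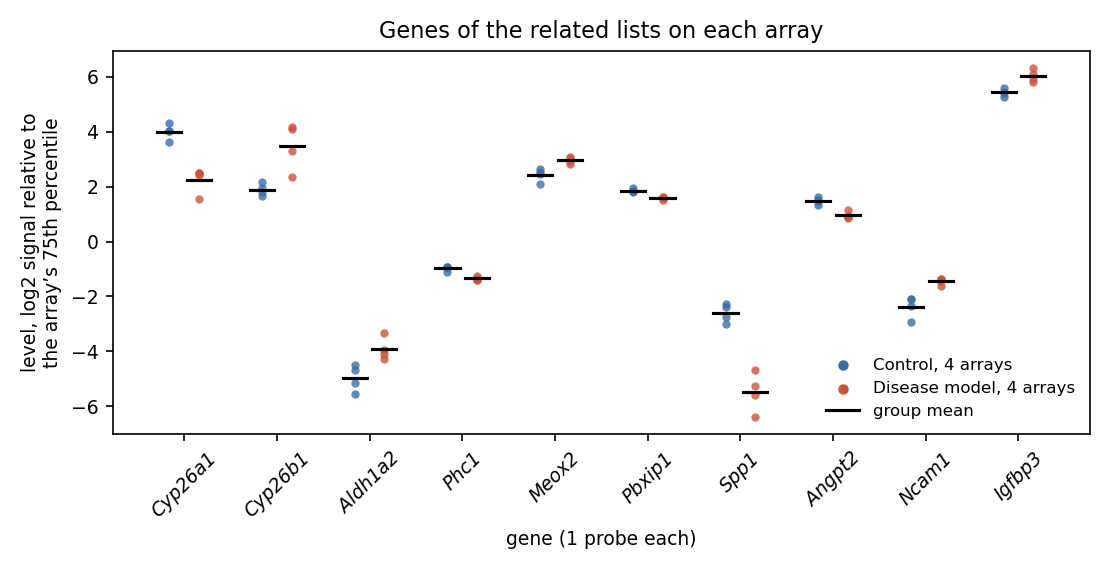
Level on each array (points; log2 signal relative to the array's 75th percentile) of genes of the retinoic acid, Polycomb, cofactor, transcription factor and reported target lists, in 4 control and 4 hypertensive rats, with the group mean as a bar. Cyp26a1 and Spp1 lie lower and Cyp26b1 higher in every hypertensive rat, Spp1 well above background in only 2 of them; Aldh1a2 and Pbxip1 did not pass the test.

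Marker lists of the tissues a vessel sample can carry were read beside these results, as log2 of the summed linear levels of a list's tested genes. Such a sum follows the brightest probes of its list and is not an amount of tissue. In the erythroid list Hba-a1 had a control mean of 4.63, against -0.56 for Hba-a2 and -0.62 for Hbb. The brightest mesothelial gene was Krt18, with means of 2.50 in controls and 1.79 in hypertensive rats. Smooth muscle markers (10 of 10 tested, none past the threshold) ranged from 8.93 to 9.38 in controls and 8.99 to 9.51 in hypertensive rats. Endothelial markers (8 tested, none past) ranged from 7.10 to 7.28 and 7.22 to 7.5, and those of fibroblasts (8 tested, none past) from 9.43 to 10.3 and 9.04 to 10.1. Both pairs of ranges overlapped, as did that of smooth muscle, although all 8 fibroblast estimates were below 0, with a median log2 change of -0.22.

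Nerve and Schwann cell markers (7 tested, none past) did not overlap, at 2.45 to 2.80 against 2.97 to 3.35. Of their estimates 6 of 7 were above 0, with a median log2 change of 0.45. White adipocyte markers (9 tested, none past) ranged from 2.44 to 3.64 and 2.56 to 5.43, the last value being hypertensive replicate 4. Of the adipocyte estimates 8 of 9 were above 0, with a median of 0.60. Leukocyte markers (9 tested, none past) ranged from 3.84 to 4.14 and 3.46 to 4.10. All 9 leukocyte estimates were below 0, with a median of -0.46, and the groups did not overlap for Cd3d (-0.74, adjusted p = 0.0531) and Csf1r (-0.49, adjusted p = 0.0557). Of 5 tested mesothelial markers, Gpm6a and Upk1b rose, Krt8 fell, and the summed level ranged from 2.60 to 3.02 and 2.17 to 2.87, while the defining markers Msln and Krt19 were not kept. Skeletal muscle (7 tested) and erythroid markers (7 tested) each had 1 gene past the threshold, Myh1 and Epb42, both higher. In each list only 4 of 7 estimates were above 0. Among the others, Acta1 (-0.42, without overlap of the groups) and Alas2 (-0.80) did not pass. The sums of the 2 lists ranged from 1.1 to 1.32 and 1.07 to 1.61, and from 4.22 to 5.10 and 3.79 to 5.58. Brown adipocyte (5 tested) and cardiac markers (4 tested) had none past, with sums of 3.34 to 3.52 and 3.29 to 3.63, and of -0.0026 to 0.16 and 0.020 to 0.33. Ucp1, Myh6 and Nppa, which define those tissues, were not kept. The part of any of these tissues in the HOX values was not tested.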

How the data were processed

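RNA was prepared with Trizol and labelled with Cy3, per the labels' protocols. The deposited scanner files hold spot intensity values that the authors' software, Agilent Feature Extraction, had background-subtracted and processed (version 10.7.1.1 per the file headers, 12.1.1.1 per the submitters' processing notes). The deposited value table holds a linear ratio. It was proportional to that intensity within 5% for all probes compared, which were the brighter ones only (11412 to 11420 per array). The table is not centred on genes and has column medians of 0.086 to 0.101. It served as an alternative.

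Flagged outlier spots (213 to 396 per array) were dropped, except where every spot of a probe was flagged, in which case they were kept. Spots were then averaged per probe on the log2 scale, and each array's 75th percentile was subtracted. No gene spot was saturated. Accessions without version named 21229 of 45598 probes (46.6%) through NCBI's rat gene table (GRCr8). Probes well above background on 50% or more of their spots, on at least 3 of 4 arrays of a group, were kept (27822). The brightest kept probe stood for each of 11965 named genes, and 12587 unnamed probes were tested each on its own, giving 24552 tests. Limma 3.58.1 (R 4.3.3) fitted group only, with Benjamini-Hochberg adjustment. On simulated data with 24552 tests, this recovered 22 of 50 genes changed 1.5-fold and 40 of 50 changed 2-fold, with 8 false of 164 calls. The simulation changed only 50 genes at each fold size and drew the values of each gene independently. Its rates therefore need not hold for the real arrays, where 1111 tests were called. Replicate numbers were not taken as pairs. The small number of arrays limits the precision. The p-values weigh each group difference against the spread between rats within the groups, which limma moderates over all tests.

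Described in full were HOX genes past the threshold, then those with a fold change of at least 1.5, then the lowest- and highest-numbered detected gene of each cluster. Of each related list, up to 4 genes past the threshold or, with none, the 2 of smallest p were named, and all neighbours past the threshold. Other names were chosen after their values were seen. Of the HOX genes counted, 1 is not reported here by name. The members and lists were chosen with earlier results of these data known. The alternatives tried are listed with the dependence of the results on processing. Coordinates come from RefSeq's promoter table. The array files' own coordinates are on another build and were not used.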

Additional observations from a re-analysis of the deposited data

Results flagged for a closer look

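In 6 of the 86 sets of 4 arrays examined, 1 array lay so far from the other 3 that its gap to the nearest, divided by the range, was above Dixon's 95% critical value for 4 values. Chance flags about 1 in 20 such sets. Control replicate 3 was low for Hoxc4, at -1.41 against -1.24 to -1.21 in the other controls. The same rat was high for Hoxd9, at 3.73 against 3.38 to 3.43. Hypertensive replicate 3 was low for Cyp26a1, at 1.56 against 2.43 to 2.51 in the other hypertensive rats. Control replicate 4 was low for Phc1, at -1.11 against -0.95 to -0.92. Control replicate 2 was high for Skap2, a gene beside Hoxa, at 4.25 against 4.06 to 4.08. Hypertensive replicate 4 was high for Snx10, a sorting gene beside Hoxa, at 6.06 against 1.98 to 2.09 at its brighter probe. At the dimmer Snx10 probe the same rat read -2.08, within the range of -2.22 to -1.54 of the other hypertensive rats.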

How the results depend on the processing

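The count of 0 HOX genes past the threshold became 4 after normexp background correction, 1 after quantile normalization, 4 with array weights and 0 to 1 when 1 array was left out. The labels link no replicate numbers across groups, and deviations of same-numbered arrays correlated at 0.21, 0.12, -0.0035 and -0.15, with 2 of 4 numbers matching themselves best. With the replicate number as a block the HOX count was 1 (Hoxb7, adjusted p = 0.0486), among 675 calls of all tests instead of 1111. It stayed 0 with median centring, no detection filter, detection on all 8 arrays, the authors' deposited table, every kept probe, the mean of probes and an unmoderated test. The 8 calls in the related lists became 11 after normexp, 7 with median centring, 5 after quantile normalization, 3 with no detection filter, 3 with the block, 5 with the unmoderated test and 2 to 7 with 1 array left out. The 0 calls beside the clusters became 1 with every kept probe and 1 with the mean of probes (Mtx2, adjusted p = 0.0117 in the latter), and 0 to 0 with 1 array left out. Calls over all tests ranged from 593 with the unmoderated test to 1853 after normexp, and were 1543 with array weights. Hoxc9 (0.25 without control replicate 3) reversed to -0.0070 with median centring, -0.051 without control replicate 2 and -0.013 without hypertensive replicate 4, and no other HOX gene did so. The HOX median stayed between 0.14 (median centring) and 0.30. Where a call was gained or lost, the cause was not tested. With another detection mark, signal significantly above background, 23 of 28 HOX genes counted as detected instead of 15, so the genes listed as detected on no array are below the stricter mark and not shown to be absent. Normexp used the median spot signal, an alternative chosen after the files were seen, because they hold no mean signal and the planned fit on it was not run. The alternatives for the genes beside the clusters were also added after the data were seen.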
